A study of Mus musculus with 4 samples.

Results

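Cycling CD4 Tc are described here: helper Tc caught with transcripts of the proliferation genes Mki67 and Top2a in the spleen of leukemia-bearing mice after allogeneic transplantation. A cell counted as a CD4 Tc if it held at least 1 unique molecular identifier (UMI, 1 per captured RNA molecule) over Cd3d, Cd3e and Cd3g, at least 1 of Cd4, and none of Cd8a, Cd8b1 or Klf1, an erythroid factor. It counted as cycling if it also held at least 1 UMI of Mki67, at least 1 of Top2a and none of Foxp3, the factor of regulatory Tc. The cells were thus chosen by their measured UMI counts, and these counts are given only as a description. The rule found 169 cells among 1759 CD4 Tc and 11632 cells that passed the filter (500 or more genes detected, 1000 or more UMIs on genes, and mitochondrial transcripts not above 10% of UMIs). They were set against 1030 resting CD4 Tc, which held no UMI of Mki67, Top2a or Foxp3, and against 699 cycling CD8 Tc, taken with the same Mki67 and Top2a gate. Left between these classes were 448 CD4 Tc with a UMI of only 1 of the gate genes and no Foxp3 UMI, and 14 cycling CD4 Tc with a Foxp3 UMI.

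BALB/c recipients had received lethal total body irradiation (TBI), 10000 WEHI-3B cells (a myelomonocytic AML line of BALB/c origin), BM, and on day 2 200000 splenic donor Tc, and spleens were taken on day 23. Donors were either Havcr2fl/fl;E8icre/+ mice, labelled CD8 TIM-3 KO, or Havcr2fl/fl mice, labelled floxed control. Both carried floxed alleles of Havcr2, which encodes TIM-3, and E8i-cre is meant to delete them in CD8+ cells, so that CD4 Tc of both genotypes should keep the gene. There were 2 mice per genotype and 1 library per mouse, made with 10x Genomics 3′ chemistry from Tc enriched with a pan-Tc kit and stained with 1 Ab, tagged with an oligo, that binds H-2Kb of the C57BL/6 haplotype. Values of single libraries are given below in 1 order: CD8 TIM-3 KO replicates 1 and 2, then floxed control replicates 1 and 2. The filter kept 3431, 2551, 1213 and 4437 cells from 38386626, 31449644, 17693991 and 55045903 UMIs on genes. Cycling CD4 Tc numbered 58, 54, 22 and 35 and held 820007, 664083, 421958 and 242163 UMIs.

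A dividing Tc copies its DNA in S phase, for which it makes replication licensing factors, nucleotide-synthesis enzymes and histones, and separates the copies in mitosis, for which it makes cyclin B, Cdk1, spindle proteins and the chromosomal passenger complex. Mki67 coats mitotic chromosomes, Top2a untangles DNA strands, and Birc5 (survivin) is a subunit of the passenger complex. Genes of G2 and M phase are known to be held down in resting cells by the DREAM complex and driven by MuvB, B-Myb and Foxm1, through CHR elements and CCAAT boxes bound by NF-Y, whereas many S phase genes answer to E2F factors. After transplantation, CD4 Tc that meet foreign MHC class II expand, help CD8 Tc through CD40 ligand and cytokines, and take on helper fates.

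To show this shared arrangement, the 150 bases before the RefSeq start (GRCm38.p6) are printed 5′ to 3′ on the gene's own strand for both gate genes, for Cdk1 (the mitotic kinase) and Ube2c (the ubiquitin-conjugating partner of the anaphase-promoting complex) and, as an S phase gene, for Pcna (the sliding clamp of DNA polymerase). The stretches are Mki67 at chr7:135716380-135716529 on the minus strand, Top2a at chr11:99024190-99024339 on the minus strand, Cdk1 at chr10:69352913-69353062 on the minus strand, Ube2c at chr2:164769779-164769928 on the plus strand and Pcna at chr2:132253181-132253330 on the minus strand. Capitals mark CCAAT or its reverse complement ATTGG, and TTTGAA or its reverse complement TTCAAA, letters of the CHR element. These 5 genes were chosen after the sequences were seen.
Mki67: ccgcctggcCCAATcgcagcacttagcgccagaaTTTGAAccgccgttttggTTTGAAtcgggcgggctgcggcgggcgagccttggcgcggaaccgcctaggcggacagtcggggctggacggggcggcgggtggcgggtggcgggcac
Top2a: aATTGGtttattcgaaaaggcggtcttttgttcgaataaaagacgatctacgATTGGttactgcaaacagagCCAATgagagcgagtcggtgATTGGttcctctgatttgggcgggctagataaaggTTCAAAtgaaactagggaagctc
Cdk1: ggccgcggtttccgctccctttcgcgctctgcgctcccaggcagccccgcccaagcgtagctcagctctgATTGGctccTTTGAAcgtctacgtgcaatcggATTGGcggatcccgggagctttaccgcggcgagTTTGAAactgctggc
Ube2c: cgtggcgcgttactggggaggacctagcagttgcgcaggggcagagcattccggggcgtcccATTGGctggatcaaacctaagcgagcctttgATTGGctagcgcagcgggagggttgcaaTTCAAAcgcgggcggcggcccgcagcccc
Pcna: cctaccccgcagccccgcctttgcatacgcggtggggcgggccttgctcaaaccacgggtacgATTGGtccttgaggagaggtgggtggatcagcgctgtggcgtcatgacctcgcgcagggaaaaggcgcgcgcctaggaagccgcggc

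Of the G2 and M list of 50 genes, 42 had a promoter in the table, and of the S phase list of 36 genes 28 had one. Searched on both strands of the 250 bases before the start, CCAAT stood in 78.6% of these G2 and M promoters (33 of 42) and 64.3% of the S phase promoters (18 of 28), against 34.5% of 27025 promoters in all. TTTGAA stood in 35.7% (15 of 42) of the G2 and M promoters, 17.9% (5 of 28) of the S phase promoters and 16.3% of all. CCAAT and TTTGAA stood together in 33.3% (14 of 42), 14.3% (4 of 28) and 5.73%. The E2F letters GGCGGGA stood in 23.8% (10 of 42), 28.6% (8 of 28) and 9.76%. A match describes letters in a window and is no evidence of binding in these cells.

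The labels were checked against the counts before any comparison. Of the 11632 cells, 4256 held no Cd3 UMI although the libraries are labelled Tc. The labels name a pan-Tc kit, while the paper speaks of donor Tc sorted by flow cytometry. Among cells kept, 17 barcodes were shared by 2 libraries, and 0 of them belonged to a cycling CD4 Tc. Havcr2 (ENSMUSG00000020399), the floxed gene, gave 56.7, 4.09, 54.1 and 95.5 CPM (the usual depth-scaled count, here a gene's UMIs relative to the summed UMIs of the class in that library) in cycling CD8 Tc, so that the library labelled CD8 TIM-3 KO replicate 1 did not lie below the floxed controls. Which exons are floxed is not given in the sources used here, and a 3′ tag outside the deleted part would not report a deletion. Each comparison of the genotypes therefore compares libraries by their labels, and the share, the counts of calls and the medians of the phase lists are also given without that library. Xist had 0 UMIs and the Y-linked Ddx3y had 67.1, 45.2, 66.4 and 49.6 CPM in cycling CD4 Tc, so all 4 libraries were alike in both genes.

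Cycling CD4 Tc held far more RNA than resting ones. Their median was 10490, 9577.5, 12876.5 and 5590 UMIs per cell against 3655, 5176.5, 5163.5 and 2498.5 in resting CD4 Tc, and 3203.5, 2932, 3276 and 2200 genes were detected per cell against 1678.5, 2034.5, 2089 and 1255. In every library cycling cells were the larger, which also makes it easier for a cell to show 1 UMI of each gate gene. Cycling CD8 Tc had medians of 9785.5, 13046, 14488 and 6649 UMIs. Between the 2 cycling classes the mean difference of the medians was −1359 ± 1719 UMIs and −255 ± 257 genes per cell (CD4 minus CD8, SD, n = 4 mice). An exact two-sided sign-flip permutation test gave p = 0.25 for both, adjusted p = 0.625 over 5 readouts per cell. The median share of mitochondrial UMIs was 2.79%, 2.86%, 1.94% and 3.06% in cycling CD4 Tc and differed from that of cycling CD8 Tc by 0.0467 ± 0.275 percentage points (exact permutation p = 0.875). The donor tag was read in cycling CD4 Tc at 236, 280.2, 241 and 317 tag UMIs per 1000 UMIs, a mean difference of 2.16 ± 28.4 from cycling CD8 Tc (exact permutation p = 1.00).

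The gate was open at its lower edge. Median Mki67 counts of the members were 15.5, 2.5, 3.5 and 3 UMIs with a highest value of 74, and median Top2a counts were 7.5, 2, 3.5 and 4 UMIs with a highest value of 65. Exactly 1 UMI of Mki67 was held by 52 members and exactly 1 UMI of Top2a by 53. Birc5, a marker that the gate did not use, was found more often in cells with more UMIs of the gate genes, which were also deeper cells, and the part of depth was not tested. Just inside the gate, at 1 UMI of each, 5.88% of 34 cells (median 5043.5 UMIs per cell) had a Birc5 UMI, and the list of G2 and M genes took 0.235% of their UMIs. Just outside it, the share with Birc5 was 11.5% of 183 cells with Mki67 alone, 1.13% of 265 cells with Top2a alone and 2.33% of the 1030 resting cells (median 4168.5 UMIs), whose G2 and M list took 0.164% of UMIs. At 2 to 4 UMIs of both genes the Birc5 share was 58.6% of 29 cells (median 9591 UMIs), and at 5 or more of both 92.8% of 69 cells (median 14736 UMIs), with 1.52% of UMIs on the G2 and M list. Over all members, 93 of 169 cells (55.0%, 95% Wilson interval 47.5 to 62.3, for counting error only) had a Birc5 UMI. Of 37 cells with 1 UMI of either gene and at least 2 of the other (median 6681 UMIs), 27.0% had a Birc5 UMI. The G2 and M list took 0.546% of their UMIs. Cells with 1 UMI of each gene thus lay near resting cells in both readouts, and cells with several UMIs of both genes lay far above resting cells. Free RNA can place single UMIs in cells that do not express a gene: Mki67 and Top2a were both found in 87.6% of 2092 erythroid cells without a Cd3 UMI (median 17013 UMIs), while Cd4 was found in 0.191% of them. How many members entered the gate through such RNA was not tested.

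A few large cells carried RNA of other lineages into the class. In 8 of the 169 members (1, 2, 3 and 2 per library), 126 to 934 UMIs fell on Mpo, Elane, Prtn3, Ctsg, Lyz2 and Ms4a3, genes of granulocyte-monocyte progenitors, while the other 161 members held at most 2. The name progenitor RNA used below refers to these genes only. Whether the RNA came from progenitors, from the myelomonocytic WEHI-3B cells or from other cells was not tested. These 8 cells had 7 or more Cd3 UMIs each, a median of 52999 UMIs against 8752 in the rest, and 141 tag UMIs per 1000 UMIs against 272. They gave 5.96%, 14.9%, 47.4% and 14.3% of the class's UMIs, so that floxed control replicate 1 depended on them most. All 9 genes of the myeloid list were detected, led by Prtn3 at a mean of 502 CPM, and the summed level was 518, 1233, 4005 and 1288 CPM with these cells and 46.7, 19.5, 72.1 and 72.3 CPM without them. Their Mki67 and Top2a counts were high, with medians of 18.5 and 26 UMIs against 4 and 4. With a limit of 5 such UMIs, 14 of 699 cycling CD8 Tc (5 to 807 UMIs on these genes, 5.56% of the class's UMIs), 1 of 1030 resting CD4 Tc (191 UMIs, in floxed control replicate 1) and 2 of 2439 resting CD8 Tc were marked as well, so that the marked CD8 Tc reached to far lower counts than the 8 members. That resting CD4 Tc moved the summed myeloid level of its class and library from 103 to 10094 CPM. One member of CD8 TIM-3 KO replicate 1 held 97.7% of the B cell list's UMIs in its library, mostly Igkc, and 1 member each of CD8 TIM-3 KO replicate 2 and floxed control replicate 2 held 97.2% and 95.9% of the erythroid list's UMIs. Of the erythroid list of 9 genes 1 (Klf1, by the rule) was at 0, of the B cell list of 6 genes 2, and of the NK cell list of 5 genes 4. Whether these barcodes held 2 cells was not tested beyond a doublet score, which left out 10 members and only 1 of the 8. Results below are given for all 169 cells, with the value without the progenitor-RNA cells, meaning every marked cell of the classes compared, beside a count of calls or of genes past 2-fold that they changed.

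S phase and mitosis were both present. The S phase list took 0.450%, 0.430%, 0.570% and 0.524% of the UMIs of cycling CD4 Tc, against 0.0848% to 0.111% in resting CD4 Tc. The G2 and M list took 1.49%, 1.21%, 0.618% and 1.21%, against 0.156% to 0.190%. Floxed control replicate 1 was the lowest of the 4 libraries for G2 and M and the highest for S phase, and no cycling value overlapped a resting one. In 20.7%, 25.9%, 40.9% and 31.4% of the members the S phase share exceeded the G2 and M share. Cycling CD8 Tc took 0.429% to 0.549% of UMIs for S phase and 1.19% to 1.33% for G2 and M.

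**Figure D1:**
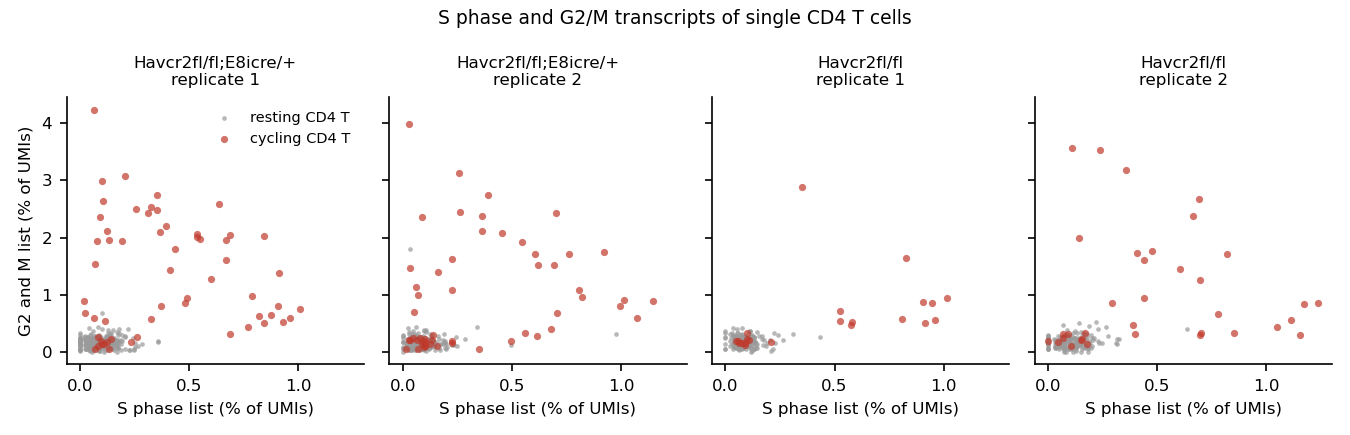
Each point is a CD4 Tc of the library named above the panel, placed by the percentage of its UMIs on the S phase list (x) and on the G2 and M list (y), with resting cells in gray and cycling cells in red. Part of the cycling cells lie within the cloud of resting cells, and the rest spread along an arc from high S phase to high G2 and M, with few G2 and M cells in floxed control replicate 1.

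Against resting CD4 Tc of the same mouse, cycling CD4 Tc were higher in nearly the whole S phase, G2 and M and histone programs and lower in single genes of the survival, memory and antiproliferative lists. This contrast follows from the gate and was not tested. Of 9420 genes, 388 were more than 2-fold higher in each of the 4 mice (4.12% of the genes) and 145 more than 2-fold lower (1.54%), on the scale of log2(CPM + 1). The median over all genes was −0.14, so a value near it is no shift. Without the progenitor-RNA cells the counts were 327 and 98.

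Of the 36 S phase genes, 34 were among the higher ones (35 without the progenitor-RNA cells, with Ung), with a median log2 ratio of 2.74. Rrm2, the regulated subunit of ribonucleotide reductase, was at 155, 167, 199 and 227 CPM in cycling and 3.03, 3.06, 5.84 and 8.25 CPM in resting CD4 Tc. Pcna was at 367, 345, 472 and 363 CPM against 86.5, 83.5, 112 and 130.0 CPM. Mcm3, a subunit of the replicative helicase, was at 228, 173, 319.9 and 260.2 CPM against 26.6, 30.6, 57.2 and 43.3 CPM. The cycling libraries lay above all resting ones for each of these genes, and for Pcna and Mcm3 resting cells still held a clear level.

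Of the 50 G2 and M genes, 40 were more than 2-fold higher in each mouse (42 without the progenitor-RNA cells, with Ect2 and Ckap5), and the median of the list was 4.15. Birc5 (ENSMUSG00000017716) was at 471, 369, 159 and 467 CPM in cycling and 5.31, 5.09, 2.34 and 20.6 CPM in resting CD4 Tc. Cdk1 was at 196, 148, 68.7 and 215 CPM against 4.55, 6.62, 4.67 and 16.5 CPM, and Aurkb, the kinase of the passenger complex, at 132, 113, 66.4 and 119.8 CPM against 0.759, 1.02, 0 and 4.13 CPM. Floxed control replicate 1 was the lowest cycling library for all 3 genes and still lay above every resting library. Ube2c showed the widest spread, with 719.5, 363, 45.0 and 454 CPM in cycling cells. Hmgb2, a chromatin protein that resting Tc also make, had the highest level of the list, at 4684, 4275, 2804 and 3502 CPM against 611, 545, 833 and 543 CPM.

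Of 19 replication-dependent histone genes 17 passed the filter on low counts, and these 17 were more than 2-fold higher in each mouse, with a median of 3.49 (16 of 17 without the progenitor-RNA cells, Hist1h4c being lost). Hist1h1b, a linker histone, was at 1512, 2953, 1412 and 4101 CPM against 11.4, 13.8, 14.0 and 64.0 CPM. Hist1h2ap reached 2213, 11023, 4745 and 1908 CPM. The order of the libraries differed between these genes, and Hist1h2ap was highest in CD8 TIM-3 KO replicate 2 in resting CD4 Tc and cycling CD8 Tc as well (116 and 8910.2 CPM). Most of these transcripts lack a poly(A) tail, so a poly(A)-primed library counts an unknown part of them, and near-identical copies can share reads.

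Growth genes moved less than the replication genes. None of the 13 ribosome biogenesis genes and none of the 14 glycolysis genes was more than 2-fold higher in each mouse, with list medians of 0.86 and 0.57 (0.44 and 0.58 without the progenitor-RNA cells). Npm1, a nucleolar chaperone, was at 1876, 894, 1747 and 1321 CPM against 763, 761, 639 and 966 CPM, and Ldha, which makes lactate, at 824, 431, 711 and 624 CPM against 404, 323, 382 and 379.6 CPM. For Ldha all cycling libraries exceeded all resting ones, while Npm1 in CD8 TIM-3 KO replicate 2 lay below the highest resting library.

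The Cdk inhibitor and antiproliferative list split. Cdkn2c (p18) was at 58.5, 76.8, 54.5 and 70.2 CPM in cycling against 21.2, 18.3, 12.9 and 20.6 CPM in resting CD4 Tc, and Cdkn3, a phosphatase that acts on Cdk and is made in mitosis, at 70.7, 66.3, 19.0 and 86.7 CPM against 0.759, 1.53, 1.17 and 0 CPM. Btg1 and Btg2, which restrain division of quiescent lymphocytes, were lower in cycling cells: Btg1 at 140.2, 329.8, 270.2 and 318 CPM against 948, 907, 834 and 753 CPM, and Btg2 at 134, 154, 133 and 157 CPM against 372, 356, 433 and 371 CPM. The other 5 of the 9 genes were not past 2-fold in every mouse. Within the list, the higher pair and the lower pair did not overlap between the classes in any library.

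Some genes of survival and homeostasis were lower in cycling CD4 Tc. Il7r, the receptor chain for the survival cytokine IL-7, was at 235, 206, 299 and 116 CPM against 673, 574, 890.3 and 602 CPM. Bcl2, which IL-7 signals sustain, was at 151, 247, 171 and 128 CPM against 699, 593, 547 and 565 CPM, and Bcl2l11 (Bim), its proapoptotic counterpart, at 24.4, 27.1, 14.2 and 33.0 CPM against 119.9, 82.5, 65.4 and 76.3 CPM. The classes did not overlap in any of the 3 genes. Of the 12 naive and memory genes 2 (Il7r and the chromatin organizer Satb1), of the 8 survival genes 2 (Bcl2 and Bcl2l11) and of the 9 costimulation and cytokine genes 2 (Tnf and Tnfsf8) were more than 2-fold lower in each mouse, and none of these lists held a gene more than 2-fold higher. The other 10, 6 and 7 genes of these lists did not pass 2-fold in every mouse. Without the progenitor-RNA cells Satb1 and Tnfsf8 no longer passed. The counts of the 3 lists were then 2, 2 and 1, with another naive and memory gene in place of Satb1. The 8 Th1, 8 Tfh, 14 checkpoint and 17 cytotoxic genes had list medians of −0.79, −0.996, −0.98 and −0.68 and no gene past 2-fold in every mouse in either direction. The 6 genes of the T cell list had a median of −0.84, with 0 of 6 above 0 and none past 2-fold in every mouse. Their summed level was 4178, 4596, 2602 and 4571 CPM against 6462, 6627, 6384 and 6778 CPM. Without the progenitor-RNA cells it was 4409, 5274, 4475 and 5229 CPM against 6462, 6627, 6529 and 6778 CPM. This list includes the Cd3 genes, which the rule used in both classes. Its values are therefore only a description and no measure for the other lists. Of the 10 interferon genes none passed with all cells and Ifit3 was lower without the progenitor-RNA cells (−2.68). Without the progenitor-RNA cells the Th1, Tfh, checkpoint, cytotoxic and T cell medians were −0.52, −0.76, −0.67, −0.40 and −0.56. Gene by gene these are shares of a larger RNA pool, so a lower CPM in a cell with more UMIs does not mean fewer transcripts per cell.

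**Figure D2:**
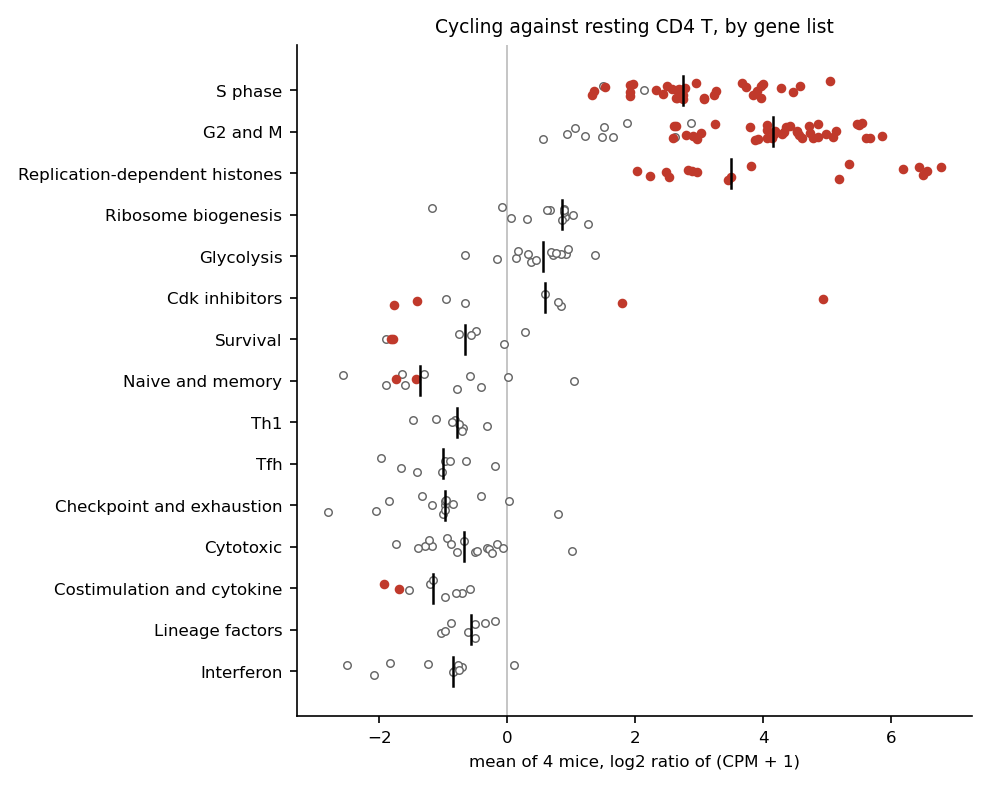
Each point is a gene of the list named at the left, placed by the mean over 4 mice of the log2 ratio of (CPM + 1) in cycling to resting CD4 Tc. Red points passed 2-fold in the same direction in each mouse, open points did not, and the black bar is the list's median: 2.74 for S phase, 4.15 for G2 and M and 3.49 for histones.

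The genes past 2-fold in cycling CD4 Tc were set beside those past 2-fold in cycling CD8 Tc against resting CD8 Tc. The CD8 lineage had 469 higher and 109 lower genes. Of the higher genes 349 were shared, which is 89.9% of the CD4 and 74.4% of the CD8 genes, and of the lower genes 41 were shared (28.3% and 37.6%). Without the cells that carried progenitor RNA, 306 higher genes (93.6% and 70.7%) and 26 lower genes (26.5% and 23.9%) were shared. The gate genes are common to both and fix part of the overlap.

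The share of CD4 Tc that cycled was lower than that of CD8 Tc in each mouse. Among CD4 Tc without a Foxp3 UMI it was 10.7% (58 of 542; 95% Wilson interval 8.37 to 13.6), 9.44% (54 of 572; 7.31 to 12.1), 9.21% (22 of 239; 6.16 to 13.5) and 11.9% (35 of 294; 8.69 to 16.1). Among CD8 Tc it was 19.5% (17.6 to 21.5), 14.1% (12.01 to 16.4), 12.4% (9.75 to 15.6) and 16.0% (14.0 to 18.1). The intervals cover counting error only, and those of the lineages overlapped in 3 mice, all but CD8 TIM-3 KO replicate 1. Means were 10.3 ± 1.25% and 15.5 ± 3.04% (SD, n = 4), and the within-mouse differences were −8.75, −4.62, −3.17 and −4.05 percentage points. An exact two-sided sign-flip permutation test gave p = 0.125, the smallest value that 4 mice allow. At a gate of 2 UMIs of each gene the means were 5.99% and 10.2%, and after every cell was thinned to 2000 UMIs, they were 4.44 ± 3.59% and 8.27 ± 3.35%. Thinning excluded 13, 7, 7 and 47 CD4 and 31, 8, 13 and 143 CD8 Tc for lower depth. Since the lineage genes were counted anew, it left 427, 423, 166 and 200 of 542, 572, 239 and 294 CD4 Tc but 1427, 912, 450 and 1098 of 1542, 960, 493 and 1272 CD8 Tc, a larger loss of CD4 Tc, and the thinned CD4 shares rest on 18, 12, 2 and 19 cycling cells.

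**Figure D3:**
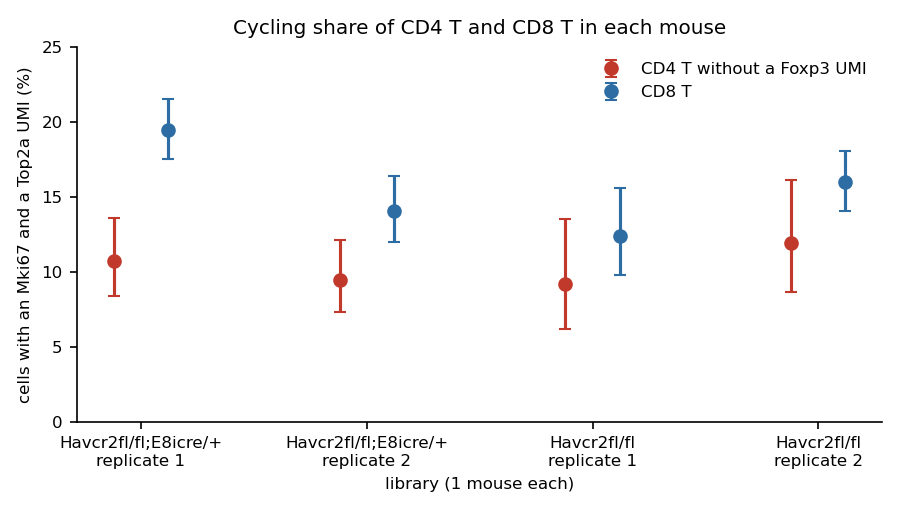
Percentage of cells with a UMI of Mki67 and of Top2a among CD4 Tc without a Foxp3 UMI (red) and CD8 Tc (blue) in each library, 1 mouse each, with 95% Wilson intervals as bars. The CD4 share lies between 9.21% and 11.9% and below the CD8 share in all 4 mice.

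Donor genotype made no detectable difference to the share of cycling CD4 Tc. It was 10.1 ± 0.891% in the CD8 TIM-3 KO libraries and 10.6 ± 1.91% in the floxed controls (SD, n = 2), a difference of −0.484 percentage points (exact two-sided permutation p = 1.00, where 2 libraries against 2 cannot go below 0.333). Without the library labelled CD8 TIM-3 KO replicate 1 the difference was −1.11 percentage points and without floxed control replicate 1 −1.83. It turned positive without CD8 TIM-3 KO replicate 2 (0.146), without floxed control replicate 2 (0.866), at a mitochondrial limit of 5% (0.542) and without cells with progenitor RNA (0.144), so it had no stable direction.

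No gene passed the test between the genotypes in cycling CD4 Tc. edgeR's quasi-likelihood test over 6404 genes called 0 (0.0%) at an adjusted p under 0.05, with 279 genes at an unadjusted p under 0.05, and DESeq2 called 4. Those 4, Mpo, Ctsg, Ms4a3 and Plac8, were lower in the CD8 TIM-3 KO libraries. Mpo, Ctsg and Ms4a3 were among the progenitor genes that the 8 cells carried. Without these cells edgeR called 0 of 5345 genes, as it had called 0 with them. The part of these cells in the 4 calls of DESeq2 was therefore not tested. Without CD8 TIM-3 KO replicate 1 edgeR called 14 genes. Havcr2 itself, which CD4 Tc of both genotypes should keep, was at 28.0, 18.1, 14.2 and 28.9 CPM in cycling and 47.8, 26.0, 12.9 and 41.3 CPM in resting CD4 Tc. The log2 fold change in cycling CD4 Tc was 0.19 (SE 0.54, edgeR adjusted p = 0.994) from 48 UMIs. Cells with a Havcr2 UMI made up 15.5%, 14.8%, 18.2% and 14.3% of the members, against 0.478% of the erythroid cells without Cd3, and 3.45%, 5.56%, 9.09% and 8.57% at 2000 UMIs per cell.

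The phase lists leaned in opposite directions without a called gene. In the CD8 TIM-3 KO libraries 48 of 49 G2 and M genes tested had a log2 fold change above 0, with a median of 0.64, and 3 of 36 S phase genes did, with a median of −0.36. All 6404 genes had a median of −0.01. Floxed control replicate 1, with 22 members, moved with this pattern: the summed G2 and M level was 14877, 12081, 6181 and 12095 CPM, so that CD8 TIM-3 KO replicate 2 and floxed control replicate 2 were alike and the genotypes overlapped. For S phase the summed level was 4496, 4301, 5704 and 5240 CPM, lower in both CD8 TIM-3 KO libraries than in both floxed controls. Without the progenitor-RNA cells the G2 and M level was 15220, 12593, 7152 and 13022 CPM. Without floxed control replicate 1 the median was 0.05 for G2 and M (33 of 50 genes above 0) and −0.18 for S phase (9 of 36). Without floxed control replicate 2 the G2 and M median was 1.41 with 1 gene called and the S phase median −0.42 (6 of 36), without CD8 TIM-3 KO replicate 1 it was 0.42 (47 of 48) and the S phase median −0.31 (4 of 36), and without CD8 TIM-3 KO replicate 2 the medians were 0.79 and −0.30 (6 of 36).

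Cycling CD4 Tc differed from cycling CD8 Tc of the same mice in identity and effector genes, while no gene of the S phase, G2 and M or histone lists was called with all cells. Of 7691 genes tested with the mouse as a block, 421 (5.47%) passed an adjusted p of 0.05 in edgeR's quasi-likelihood test, 228 higher (2.96%) and 193 lower (2.51%) in CD4 Tc. The median over all genes was 0.01. Overlap of the classes is described below for single called genes only. The share of all genes without overlap is not given, so no weight rests on it. Of the phase lists, 0 of 36 S phase, 0 of 50 G2 and M and 0 of 17 histone genes were called by edgeR, with medians of −0.02, −0.21 and −0.21 and 1, 4 and 4 genes at an unadjusted p under 0.05. Without the 8 members and 14 CD8 Tc that carried progenitor RNA, edgeR called 272 genes higher and 171 lower of 7324 (6.05%), and 172 of the higher and 148 of the lower calls were shared with the first fit (76.0% of its 421), while 1 histone gene, Hist1h2ae, was then called lower (−0.41, edgeR adjusted p = 0.0468). Without CD8 TIM-3 KO replicate 1 the count fell to 230 genes and without CD8 TIM-3 KO replicate 2 to 266.

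The ThPOK gene and the CD40 ligand gene were higher in cycling CD4 than in cycling CD8 Tc. Zbtb7b (ThPOK), the factor that commits thymocytes to the CD4 lineage, was at 36.6, 33.1, 28.4 and 45.4 CPM in cycling CD4 Tc against 5.92, 11.2, 8.40 and 5.34 CPM in cycling CD8 Tc (log2 fold change 2.20, SE 0.32, edgeR adjusted p = 0.000802). Cd40lg, the ligand through which helper Tc license dendritic and B cells, was at 14.6, 30.1, 14.2 and 12.4 CPM against 1.56, 1.53, 0 and 0 CPM (4.04, SE 0.56, edgeR adjusted p = 0.000573). The classes did not overlap for either gene, and the Cd40lg values rest on 41 and 8 UMIs. In resting CD4 Tc the mean level was 55.0 ± 8.20 CPM for Zbtb7b and 55.4 ± 25.8 CPM for Cd40lg, against 14.2 ± 2.84 and 3.52 ± 2.94 CPM in resting CD8 Tc (SD, n = 4). Of the 8 lineage factors tested, Zbtb7b and Gata3 were higher and Runx3, Ikzf3 and Tox were lower in CD4 Tc. Runx3, the counterpart of ThPOK in the CD8 lineage, was at 134, 136, 104 and 111 CPM against 348, 328, 327 and 267 CPM.

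The follicular helper list was raised in part. Of its 8 genes 6 were tested, and 3 of these had a log2 fold change above 0, all of them called. The 2 genes not called lay below 0. Maf, a factor that drives Il21, was at 244, 289, 268 and 285 CPM in cycling CD4 Tc against 14.0, 56.2, 35.5 and 38.1 CPM in cycling CD8 Tc (log2 fold change 3.04, SE 0.23, edgeR adjusted p = 2.56e-06). Icos, a costimulatory receptor of helper Tc, was at 112, 172, 111 and 132 CPM against 29.9, 41.9, 31.7 and 44.1 CPM (1.86, SE 0.16, edgeR adjusted p = 8.36e-06). Il21, which encodes a helper cytokine, was at 12.2, 49.7, 14.2 and 28.9 CPM against 2.18, 4.09, 4.67 and 2.67 CPM (2.89). The lineages were apart in every library for all 3 genes. Maf and Icos were at higher levels still in resting CD4 Tc, with means of 522 ± 160.2 and 264 ± 24.8 CPM. Pdcd1 (PD-1), the fourth called gene among 6 tested, was lower in CD4 Tc, at 87.8, 172, 128 and 116 CPM against 258, 168, 215 and 187 CPM, with classes that overlapped, and its adjusted p of 0.0462 (edgeR) rose to 0.191 without the cells that carried progenitor RNA.

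Single genes of the Th1 and Th2 lists were higher in cycling CD4 Tc. Of 7 Th1 genes tested 2 were higher in CD4 Tc, Cxcr3 at 121, 111, 104 and 78.5 CPM against 38.6, 73.5, 54.1 and 56.8 CPM (log2 fold change 0.97) and the IL-18 receptor chain Il18r1 (1.18), and 1 was lower, the chemokine receptor Cxcr6 (−0.97). Only these 2 higher genes had a log2 fold change above 0, and the median of the 7 was −0.13 (0.05 without the progenitor-RNA cells). Ifng was not called, at 23.2, 61.7, 23.7 and 140.4 CPM against 71.9, 53.1, 85.9 and 67.4 CPM. Of the 8 Th2 genes only 2 passed the filter on low counts. Both were higher, Gata3 (0.90) and the IL-33 receptor Il1rl1 (2.19, at 8.54, 48.2, 19.0 and 45.4 CPM against 2.18, 4.60, 17.7 and 4.01 CPM, with overlap). The summed level of the Th2 list in cycling CD4 Tc was 139, 117, 99.5 and 140 CPM. Gata3 alone had a mean of 82.9 CPM, and 2 of the 8 genes were at 0. No Th17 gene passed the filter on low counts. The calls of Il1rl1 and Il18r1 were each lost in 3 alternatives, those of Gata3 and Cxcr3 in 2 and that of Cxcr6 in 5. Of 5 regulatory genes tested 3 were higher although cells with a Foxp3 UMI had been left out: Tnfrsf4 (OX40) at 178, 164, 161 and 285 CPM against 27.4, 38.3, 28.9 and 60.8 CPM (2.37, SE 0.16, edgeR adjusted p = 5.47e-07), Ctla4 (0.98) and Tnfrsf18 (GITR, 0.89). The call of Ctla4 was lost in 5 alternatives. The IL-2 receptor chain Il2ra was the fourth higher gene without the cells with progenitor RNA. Activated helper Tc are known to carry these receptors as well, and a Foxp3 transcript can be missed at this depth.

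Naive and memory genes were in part higher in cycling CD4 than in cycling CD8 Tc. Of 10 naive and memory genes tested 6 were higher and 0 lower, with a median log2 fold change of 1.13 (8 of 10 without the cells with progenitor RNA, with Klf2 and Id3). Il7r was at 235, 206, 299 and 116 CPM against 21.2, 19.4, 55.1 and 58.1 CPM (2.67, SE 0.29, edgeR adjusted p = 9.35e-05). Tcf7 (TCF-1), a factor of self-renewing Tc, was at 106, 134, 16.6 and 90.8 CPM against 23.7, 27.1, 31.7 and 29.4 CPM (1.68, edgeR adjusted p = 0.00726), and Slamf6 at 201, 159.6, 128 and 74.3 CPM against 42.0, 71.0, 66.3 and 38.7 CPM (1.43). CD4 Tc were higher in all 4 mice for Il7r and Slamf6, and in 3 of 4 for Tcf7, where floxed control replicate 1 went the other way. The call of Tcf7 was lost in edgeR's test without CD8 TIM-3 KO replicate 1 and without CD8 TIM-3 KO replicate 2, and with DESeq2 (adjusted p = 0.405, the highest of its 16 alternatives). Lef1 (1.15), S1pr1 (1.12) and Satb1 (0.96) were the other 3, and their calls were lost in 2, 3 and 6 alternatives.

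Cytotoxic genes were lower in cycling CD4 Tc in part. Of 17 cytotoxic genes tested 10 were lower and 0 higher, with a median of −1.38. Without the cells with progenitor RNA the count was the same, with Klrk1 in place of Ctsw. Gzmb, a granzyme that starts apoptosis in target cells, was at 61.0, 39.2, 33.2 and 86.7 CPM in cycling CD4 Tc against 507, 452, 311 and 574 CPM in cycling CD8 Tc (log2 fold change −3.14, SE 0.16, edgeR adjusted p = 2.65e-08). Ccl5, a chemokine of effector Tc, was at 1887, 2191, 1476 and 2981 CPM against 8764, 7549.9, 7944 and 8592 CPM (−1.99, SE 0.11, edgeR adjusted p = 7.50e-08). Nkg7, a granule membrane protein, was at 938, 1218, 839 and 1412 CPM against 2913, 2671, 2346 and 3372 CPM (−1.38). These 3 genes were lower in every library with no overlap, yet none was absent from cycling CD4 Tc. Gzma varied between mice far more, at 57.3, 142, 2.37 and 764 CPM against 1322, 837, 271 and 2478 CPM (−3.12). The pore protein Prf1 was at 23.2, 21.1, 9.48 and 124 CPM against 216, 111, 156 and 161 CPM (−2.27). For both, the highest CD4 value came from floxed control replicate 2 and overlapped the CD8 range, while within each mouse CD4 Tc were lower.

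Checkpoint genes followed the same side. Of 11 tested 9 were lower and only Ctla4 was higher, with a median of −1.64 (8 lower without the cells with progenitor RNA, the difference being Pdcd1). Cd160, a receptor of the HVEM ligand, was at 23.2, 27.1, 0 and 28.9 CPM against 233, 181, 189.5 and 185 CPM (−3.32, SE 0.31, edgeR adjusted p = 1.79e-05). Cd244a (2B4, −2.75), the orphan nuclear receptor Nr4a2 (−2.30), the T-box factor Eomes (−1.91), Rgs16 (−1.77), the ectonucleotidase Entpd1 (−1.64), Lag3 (−1.58) and Tox (−1.03) were the others besides Pdcd1. Tox and Pdcd1 remained well detected in cycling CD4 Tc, at means of 220.5 and 126 CPM.

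Genes of the costimulation and cytokine list were divided by lineage. Of 6 tested, Cd40lg, Tnfsf8 (CD30 ligand, 2.05), Cd5 (1.36) and Cd28 (0.82) were higher in CD4 Tc. Tnfrsf9 (4-1BB) was lower, at 28.0, 25.6, 11.8 and 41.3 CPM against 180.0, 111, 113 and 183 CPM (−2.49, SE 0.20, edgeR adjusted p = 4.63e-06), and so was Cd27 (−1.32). OX40 and 4-1BB, related receptors that sustain activated Tc, thus stood on opposite sides.

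Of the T cell list, the rule used the Cd3 genes on both sides, so nothing is read from them. Of its other 3 genes Trbc2, a constant gene of the T cell receptor β chain, was called lower in CD4 Tc (−0.58, and −0.32 without the progenitor-RNA cells), and Trac and Cd2 were not called. Few of the growth and survival genes were called. Glycolysis had 1 called gene of 13 (Pfkl, 0.73), ribosome biogenesis 0 of 12 by edgeR with 0 at an unadjusted p under 0.05, the Cdk inhibitor list 1 of 8 (Cdkn2a, −1.12; 3 without the cells with progenitor RNA, with Cdkn2d at 0.63 and Btg2 at 0.61 higher) and the interferon list 1 of 6 (Ifi27l2a, 0.93). Of 8 survival genes, Bcl2l11 was called (and Bax, at −0.53, without the cells with progenitor RNA), at 24.4, 27.1, 14.2 and 33.0 CPM against 160.1, 86.3, 91.5 and 74.8 CPM (−2.16, SE 0.24, edgeR adjusted p = 9.96e-05). Bcl2 was at 151, 247, 171 and 128 CPM against 162, 194, 129.8 and 168 CPM and was not called. Of the 8 myeloid genes tested 4 were called higher and 2 lower, and none passed the filter and the test without the cells that carried progenitor RNA. Of the 5 erythroid genes tested 0 were called by edgeR, with 0 at an unadjusted p under 0.05, and Ighm was called higher among 2 B cell genes (0.96).

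**Figure D4:**
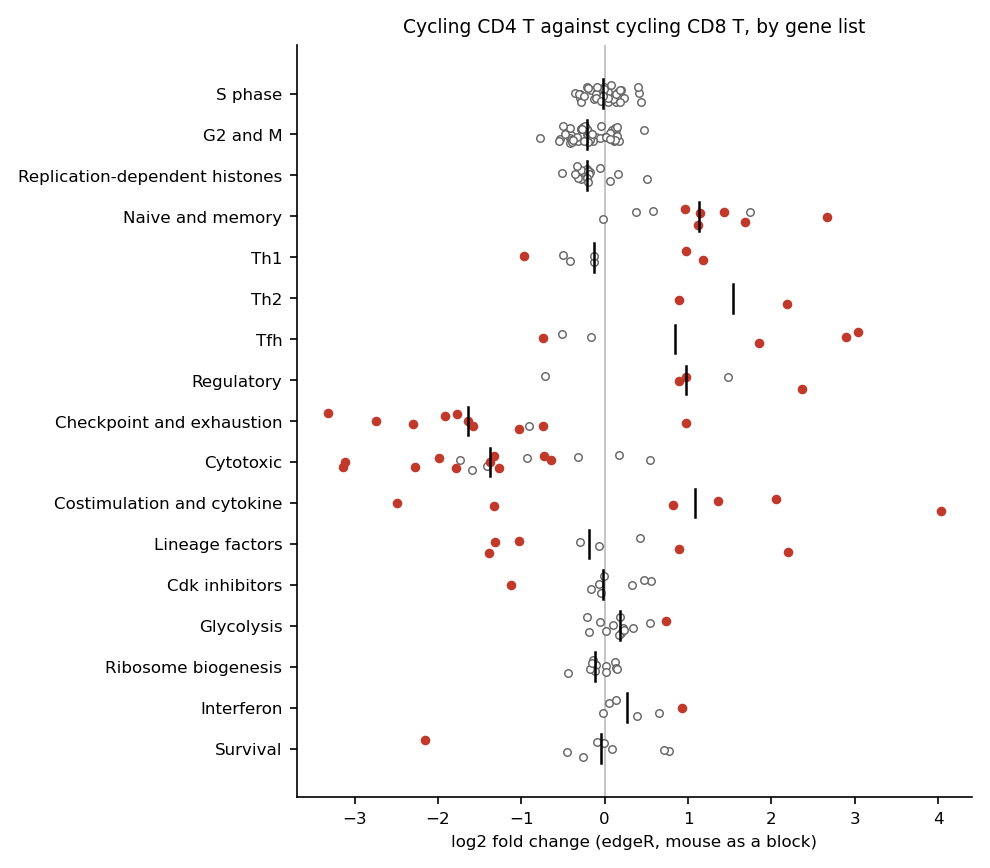
Each point is a gene of the list named at the left, placed by edgeR's log2 fold change of cycling CD4 Tc over cycling CD8 Tc with the mouse as a block. Red points passed an adjusted p of 0.05, open points did not, and the black bar is the list's median: −0.02 for S phase, −0.21 for G2 and M, 1.13 for naive and memory, −1.64 for checkpoint and −1.38 for cytotoxic genes.

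Among genes past the threshold with a mean of 20 CPM or more in the higher class and the same direction in every mouse, which leaves out Cd40lg, S100a8 and S100a9, the 10 with the largest positive fold included, besides Maf, Il21 and Il7r, Socs2, a feedback inhibitor of cytokine signals (log2 fold change 4.04, SE 0.44, edgeR adjusted p = 9.35e-05), the secreted protein Igfbp7 (3.74), the interferon-inducible membrane proteins Ifitm1 (3.24) and Ifitm2 (2.65), the linker histone H1f0 (2.895), the death receptor Tnfrsf25 (2.84) and the Rac activator Tiam1 (2.57). The 10 with the largest negative fold under the same limits included, besides Gzmb, Gzma and Cd160, the muscle enolase Eno3 (−4.43), Rnf165 (−4.41), the monocarboxylate carrier Slc16a11 (−4.05), Sept4 (−3.66), the γ chain constant gene Tcrg-C2 (−3.52), Tff1 (−3.02) and the surface receptor Cd7 (−2.80). H1f0, a histone made outside S phase, was higher in CD4 Tc while none of the 17 replication-dependent histone genes was. Socs2 was at a mean of 37.3 ± 15.1 CPM in cycling CD4 Tc against 2.10 ± 1.45 CPM, and Igfbp7 at 74.6 ± 37.0 CPM against 5.36 ± 4.83 CPM (SD, n = 4).

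**Figure D5:**
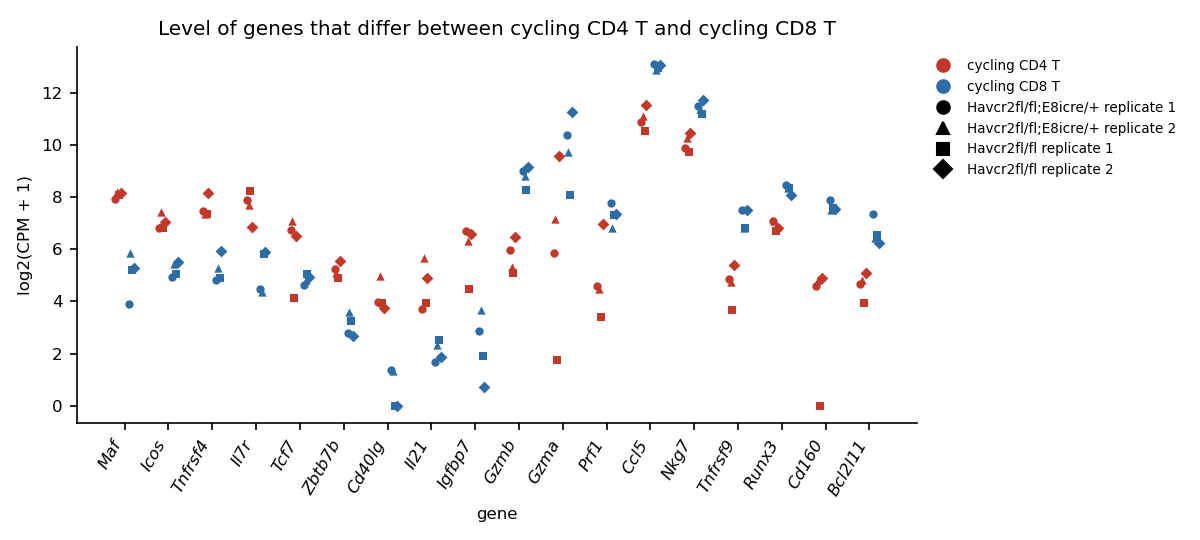
Level of named genes as log2(CPM + 1) in cycling CD4 Tc (red) and cycling CD8 Tc (blue), with 1 symbol shape per library. From Maf to Igfbp7 the CD4 points lie above the CD8 points of the same mouse, with floxed control replicate 1 as the exception for Tcf7, and from Gzmb to Bcl2l11 they lie below them.

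The change from resting to cycling was then compared between the lineages as an interaction, a test that the gate does not fix since it was the same on both sides. Of 9420 genes edgeR called 0 (0.0%), with 705 genes at an unadjusted p under 0.05, and DESeq2 called 6. The genes that set cycling CD4 apart from cycling CD8 Tc were thus not shown to change differently with cycling in the 2 lineages. The smallest adjusted p was that of Bcl2l11, which fell more in CD4 Tc (interaction −1.41, SE 0.23, edgeR adjusted p = 0.0593, and 0.0515 without the cells that carried progenitor RNA). It was also among the 6 genes of DESeq2, with Lat2, Izumo1r, Hif1a, Nrip1 and Dusp1, which were chosen after their values were seen. Of the 36 S phase genes 32 had an interaction above 0, with a median of 0.33 against −0.01 over all genes, and the G2 and M list had a median of −0.06. The S phase list took 0.129%, 0.0949%, 0.0936% and 0.151% of UMIs in resting CD8 Tc against 0.0848%, 0.0885%, 0.0937% and 0.111% in resting CD4 Tc, so that both the resting and the cycling ranges of the lineages overlapped.

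Since E8i-cre is meant to act in CD8+ cells, the genotype difference in cycling CD4 Tc was last compared with that in cycling CD8 Tc. edgeR called 0 of 7691 genes (0.0%), with 338 at an unadjusted p under 0.05, and DESeq2 called 0. Havcr2 had an interaction of 1.60 (SE 0.75, edgeR adjusted p = 1.00), with the library labelled CD8 TIM-3 KO replicate 1 at a level like those of the floxed controls in cycling CD8 Tc. Without that library edgeR called 3 genes. Of the 50 G2 and M genes 48 had an interaction above 0, with a median of 0.74, and of the 36 S phase genes 3 did, with a median of −0.48, against 0.02 over all genes and with no gene of either list called. In cycling CD8 Tc the G2 and M list took 1.22%, 1.24%, 1.19% and 1.33% of UMIs, without a low value in floxed control replicate 1. Without floxed control replicate 1 the medians were 0.24 for G2 and M and −0.06 for S phase, and without CD8 TIM-3 KO replicate 1 they were 0.52 and −0.39. Without CD8 TIM-3 KO replicate 2 or floxed control replicate 2, 6 and 8 G2 and M genes were called, with medians of 0.82 and 1.35.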

How the data were processed

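Tc of 4 spleens, 1 mouse and 1 library each, were profiled by 10x 3′ sequencing, with 32285 genes and 1 Ab tag. The deposited matrices hold UMI counts per gene and cell, which the authors made with Cell Ranger 6.1.2 on mm10 per the submitters' processing notes, and they were not normalized. Replicates were not pooled, and the labels give 2 mice per genotype. The members and the gene lists were chosen with earlier results of these data known.

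Counts were summed per library and class (Python 3.11.15, scanpy 1.11.5) and tested with edgeR 4.0.16 in R 4.3.3 (TMM, filterByExpr, quasi-likelihood test, Benjamini-Hochberg adjustment, threshold 0.05), with the mouse as a block between lineages. CPM served for levels, with a pseudocount of 1 CPM in log2 ratios. Shares and readouts per cell were tested by exact two-sided permutation over libraries (SciPy 1.17.1). The fits were also run on simulated counts with known changes, drawn with a common dispersion for all genes, and those results are not given here. Cycling and resting CD4 Tc were not tested against each other. Cycling CD4 Tc held 242163 to 820007 UMIs per library, the fewest of the classes compared in each library, so genes of a few CPM rest on few counts.

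Named are the genes of the rule, genes of the lists (by counts, with up to 6 members of highest level or, past the threshold, largest fold), up to 10 genes each way per test with a mean of 20 CPM or more in the higher class and the same direction in every mouse (T cell receptor and immunoglobulin variable genes and unnamed gene models left out), Havcr2, Xist and Ddx3y. Alternatives were DESeq2 1.42.0, DESeq2 size factors, no filter on low counts, stricter cell filters and gate, donor-tag, doublet-score (Scrublet) and other-lineage filters, thinning to 2000 UMIs, a fit on all classes, another resting class, a replicate block and leaving out each library. Leaving out cells with 5 or more UMIs of progenitor genes was added after seeing the data. Promoters are those of RefSeq for GRCm38.p6, matched by symbol. A further list gene is not reported here.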

Additional observations from a re-analysis of the deposited data

How the results depend on the processing

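The difference in cycling share between CD4 and CD8 Tc stayed negative under every alternative run, from −3.83 to −5.46 percentage points, and from −3.95 to −5.81 with 1 library left out. The genotype difference in that share turned positive at a mitochondrial limit of 5% (0.542 percentage points) and without cells with progenitor RNA (0.144), and ran from −1.83 to 0.866 with 1 library left out, positive without CD8 TIM-3 KO replicate 2 or floxed control replicate 2. Genes called between genotypes, 0 by edgeR, numbered 1 without cells with a UMI of another lineage, 4 with DESeq2, 63 without a filter on low counts and 11 to 28 with 1 library left out, where a lone library is assumed to vary like the other genotype. Of cycling CD4 against cycling CD8 Tc, 421 genes became 276 without cells with a UMI of another lineage, 282 at 2 UMIs per gate gene, 120 after thinning, 245 with DESeq2, 796 without the filter, 852 in the fit on all 4 classes and 230 to 378 with 1 library left out, lowest without CD8 TIM-3 KO replicate 1. The interaction of lineage and cycling gave 7 genes at 2 UMIs per gate gene, 1 after thinning, 6 with DESeq2, 100 without the filter and 0 to 4 with 1 library left out. That of genotype and lineage gave 3 at 2 UMIs per gate gene, 34 without the filter and 3 to 41 with 1 library left out. The causes were not tested.

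Alternatives were followed for 67 named genes, all of them called between cycling CD4 and cycling CD8 Tc with all cells. Of 1070 values, 998 kept the direction and the call, 72 kept only the direction and 0 reversed. The genes were chosen by that call and most alternatives reuse the same cells, so these counts are no independent check. Genes had a value in 11 to 17 alternatives, since low genes dropped out of some, and 44 were called wherever they were tested. Of the 32 genes tested in all 17, 23 were called in all. The calls lost most often were Pdcd1 (8 alternatives), Pfkl (7), Satb1 (6), Ctla4 and Cxcr6 (5 each), and Tcf7 was lost in 3. Replicate numbers were not shown to pair the libraries (correlation −0.0077). With 2 libraries per genotype both numbers give this same value by construction, so it is a single value. With the replicate block the genotype difference in share was −0.484 and 0 genes were called by edgeR (237 at an unadjusted p under 0.05). The genotype comparison rests on 2 libraries against 2, with 22 to 58 cells behind each.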
